A study of Homo sapiens with 7 samples.

Results

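The MYC, MAX and MXD network is a set of basic helix-loop-helix leucine zipper transcription factors built around MAX, and its 10 genes MYC, MYCN, MYCL, MAX, MXD1, MXD3, MXD4, MXI1, MNT and MGA were taken from the deposited table by symbol, out of 58174 genes. All 10 symbols were found. Huh-7 is a cell line derived from a human hepatocellular carcinoma. Cells received either a control siRNA (siC, 3 libraries) or a pool of siRNAs against IGF2BP1 (siIGF2BP1, 4 libraries, written siImp1 in the sample titles), and RNA was taken 72 h after transfection from cells grown in DMEM with serum. All libraries come from this 1 line, and nothing in the labels says whether replicates were separate cultures, so that p-values measure the spread between these libraries, which may be technical. Total RNA was sequenced after removal of ribosomal RNA, and abundance is given in FPKM, fragments corrected for gene length and for library size. Means are printed ± SD over the 3 siC and the 4 siIGF2BP1 libraries, and adjusted p-values come from limma over all genes tested. Only transcripts were measured, not proteins.

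MAX is the shared partner: MYC, MYCN and MYCL dimerize with it, bind the E-box CACGTG and mainly activate transcription of genes for growth and ribosome production. MXD1, MXD3, MXD4 and MXI1 compete for MAX at the same sites and recruit the SIN3 histone deacetylase corepressor, as does MNT. MGA links MAX to a Polycomb complex (PRC1.6). MYC is a frequently amplified driver of liver cancer, and MYC mRNA is the transcript on whose coding region the protein IGF2BP1 was originally described as a stabilizing factor.

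The IGF2BP1 protein can protect bound mRNAs from microRNAs, so the 3'UTRs of the network genes were searched for the 7 bases complementary to the seed (bases 2 to 8) of 4 microRNAs with known ties to this network or to IGF2BP1. The mature sequences (RefSeq, GRCh38.p14) are printed with the seed in capitals, and their abundance was not measured in these libraries.
let-7a-5p: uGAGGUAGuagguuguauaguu
miR-17-5p: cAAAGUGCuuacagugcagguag
miR-22-3p: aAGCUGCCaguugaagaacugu
miR-34a-5p: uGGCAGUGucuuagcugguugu
A match to miR-17-5p stood in the 3'UTRs of MYCN, MXD1 and MXI1 and in those of no other member. Their log2 changes differed in sign, with MXD1 lower and not past the test, and no relation of a match to a change was tested. For comparison, 3'UTRs of similar length (GENCODE) were taken from the genes tested here, those with a mean of at least 1 FPKM. Of these, 13.1% (MYCN), 55.5% (MXD1) and 36.3% (MXI1) hold this match, so that for MXD1 and MXI1 a match is common at this length. The matches are printed below with the 7 bases in capitals, on the strand of the mRNA (GRCh38).
MYCN, chr2:15946944-15946964, plus strand: ctgcatcttataGCACTTTga
MXD1, chr2:69940311-69940331, plus strand: aaagatatgtctGCACTTTga
MXI1, chr10:110286331-110286351, plus strand: aatttctagcctGCACTTTga
The short MYCN 3'UTR (907 bases) also held 2 matches to miR-34a-5p, which 12.5% of 3'UTRs of similar length hold at least 1 of. A let-7 match was found in MXD1 alone among the members (23.4% of 3'UTRs of similar length), whereas the 3'UTR of IGF2BP1 itself (6701 bases) held 4. Of 3'UTRs similar in length to that of IGF2BP1, 32.1% hold at least 1. These 3 sites of the members read as follows.
MYCN, miR-34a-5p, chr2:15946108-15946128, plus strand: aaactggacagtCACTGCCac
MYCN, miR-34a-5p, chr2:15946666-15946686, plus strand: tactaattcttaCACTGCCtg
MXD1, let-7a-5p, chr2:69939074-69939094, plus strand: catttttttttcCTACCTCag
A match is a description of letters and does not show that a microRNA acts there. Only this 7-base match was searched, so its absence does not show that a 3'UTR lacks other kinds of site for that microRNA. Matches to miR-22-3p were found in MYCL (2), MAX (1), MXD1 (1), MXD3 (1) and MXD4 (4), and further matches to miR-34a-5p in MXD4 (3) and MNT (1). Of 3'UTRs of similar length, 17.9%, 13.6%, 32.5%, 4.79% and 22.3% in this order hold at least 1 match to miR-22-3p. For miR-34a-5p the shares are 23.6% (MXD4) and 22.6% (MNT). The 3'UTRs of MYC and MGA held no match to any of the 4.

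Promoters (250 bases before to 50 after the start, RefSeq on GRCh38.p14) were matched for 9 of the 10 members, with MYC not searched. They were searched on both strands for the E-box CACGTG, through which the network could act on its own genes, and for the E2F-type motifs TTTCGCGC, TTTGGCGC and TTTCCCGC with their reverse complements. The MYCN promoter is printed because MYCN was the most abundant member and passed the test, with its E2F-type matches, 2 that overlap and start 176 and 172 bases before the start, in capitals.
MYCN, chr2:15940300-15940599, plus strand: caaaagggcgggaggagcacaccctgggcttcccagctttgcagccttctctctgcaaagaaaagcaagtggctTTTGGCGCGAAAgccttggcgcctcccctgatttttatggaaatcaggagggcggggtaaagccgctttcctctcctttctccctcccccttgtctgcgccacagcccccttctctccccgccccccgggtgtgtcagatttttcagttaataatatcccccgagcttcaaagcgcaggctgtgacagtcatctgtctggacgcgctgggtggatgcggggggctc
An E2F-type match stood in 2.74% of all 35116 promoters in the table, and among the other members in that of MGA, 65 bases before 1 of its starts. The promoter at the most upstream start of MXI1, the other gene that passed, held neither motif, nor did its other 2 starts.
MXI1, chr10:110207355-110207654, plus strand: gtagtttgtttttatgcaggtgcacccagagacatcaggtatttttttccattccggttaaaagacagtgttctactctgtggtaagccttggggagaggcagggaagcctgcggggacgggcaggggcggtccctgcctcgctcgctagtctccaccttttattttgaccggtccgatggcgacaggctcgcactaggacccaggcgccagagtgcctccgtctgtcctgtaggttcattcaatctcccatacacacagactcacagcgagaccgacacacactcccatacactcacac
The E-box was found in 7.26% of all promoters and in those of 2 members, MXD4 and MNT, neither of which passed the test. The windows around it are printed with the E-box in capitals.
MXD4, chr4:2262332-2262357, minus strand: gccgggccacCACGTGctgttgctaa
MNT, chr17:2401238-2401263, minus strand: ctgcccgggcCACGTGtgcgcgcgcc

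Depth ran from 12826550 to 33212205 reads on genes per library, and the targeted gene followed the labels. IGF2BP1 fell from 82.2 ± 2.03 (n = 3) to 15.8 ± 0.583 FPKM (n = 4), which leaves 19.2% of the control level (log2 change -2.37, adjusted p = 1.16e-05). Neither paralogue passed, with 0.10 for IGF2BP2 (adjusted p = 0.559) and 0.058 for IGF2BP3 (0.649) as log2 changes. All 10 hepatocyte markers were detected, and their summed level ran from 5969 to 7486 in siC and from 6996 to 7188 FPKM in siIGF2BP1. That sum was carried mostly by AFP (3151 ± 469 and 2740 ± 71.2 FPKM, log2 change -0.19, adjusted p = 0.450) and ALB (1814 ± 95.3 and 1993 ± 46.5 FPKM, log2 change 0.14, adjusted p = 0.443). Of these 10 markers 0 passed, while 4 were higher and 1 lower without overlap of the groups, beside 11.9% and 15.1% of all genes. AHSG, a secreted plasma protein named after its values were seen, was at 167 ± 49.4 and 384 ± 22.4 FPKM (log2 change 1.25, adjusted p = 0.0115). It was called with voom, with quantile normalization, at a filter of 5 FPKM, with array weights and with the GC trend removed. It was also called without siC replicate 3, alone or together with siIGF2BP1 replicate 2. These fits called from 3.63% (quantile normalization) to 18.5% (array weights) of all genes. Without siC replicate 3, AHSG and TF were called higher and FGB and TTR lower, beside 3.59% and 6.67% of all genes. Of 10 markers of blood, endothelial and stromal cells, only CD14 and PECAM1 exceeded a mean of 1 FPKM, MS4A1 and HBB were listed at 0, and the sum ran from 3.39 to 4.63 in siC and from 5.44 to 6.37 FPKM in siIGF2BP1. That difference lay mostly in CD14, at 0.892 ± 0.396 and 2.25 ± 0.283 FPKM on 12 to 91 reads per library (log2 change 1.33, adjusted p = 0.0338). PECAM1 was at 2.81 ± 0.235 and 3.01 ± 0.189 FPKM (log2 change 0.097, adjusted p = 0.590). The part of these marker levels in the results was not tested. The library siC replicate 3 stood apart on the first principal component (34.5% of the variance, 69.5 against -27.5 to 4.52 in the other 6), and its log2 distance from the other siC libraries fell with the GC content of the transcript (Spearman -0.427 over 14711 genes), as did that of siIGF2BP1 replicate 2 (-0.386). Results are therefore also given without siC replicate 3 where it moves them.

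MYCN and MXI1 rose upon IGF2BP1 depletion, whereas MYC itself did not pass the test. Of the 9 members with a mean of at least 1 FPKM, 2 were called higher and 0 lower at an adjusted p under 0.01 (4 at an unadjusted p under 0.05, limma, two-sided, over 14839 genes). Over all genes tested, 3.93% were called, 1.65% higher and 2.28% lower. The siC and siIGF2BP1 values did not overlap for 5 of the 9, 3 higher (MYCN, MXI1, MNT) and 2 lower (MXD1, MAX), against a background of 27% of all genes, 11.9% higher and 15.1% lower. At an adjusted p under 0.05, which 11.5% of all genes reached, MXD1 was added. In bulk RNA a change of the transcript per cell and a change in the share of cells that carry it cannot be told apart.

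**Figure D1:**
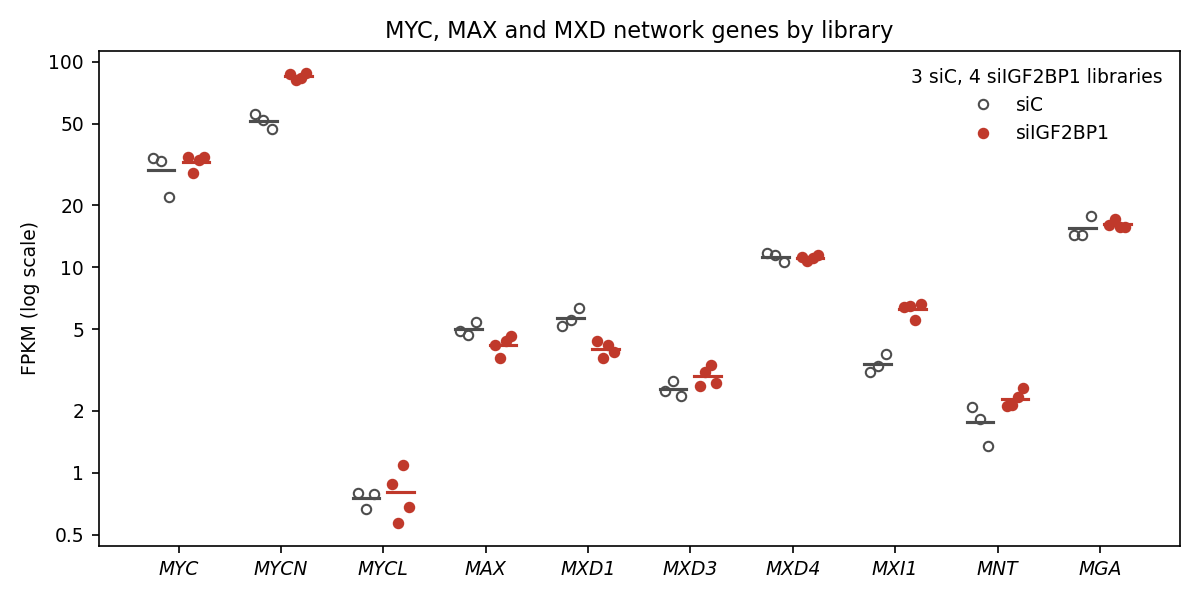
Abundance of the 10 network genes in FPKM (vertical log axis) in each siC library (open grey circles, n = 3) and each siIGF2BP1 library (filled red circles, n = 4), with horizontal lines at the group means. MYCN and MXI1 show siIGF2BP1 values wholly above siC (81.2 to 88.0 against 46.9 to 55.4 FPKM for MYCN), while the MYC groups overlap.

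In the MYC family, MYCN (ENSG00000134323, GRCh38 chromosome 2, 15940550 to 15947007, plus strand, 3 exons), best known as the amplified oncogene of neuroblastoma, was the most abundant member in both groups. It was at 55.4, 52.2 and 46.9 FPKM in siC replicates 1 to 3. Upon depletion it was at 87.5, 81.2, 83.6 and 88.0 FPKM in replicates 1 to 4. All 4 depleted libraries lay above all 3 control libraries, and the spread within each group was small beside the gap. The mean rose from 51.5 ± 4.31 to 85.1 ± 3.25 FPKM, a ratio of 1.65 (log2 change 0.73, SE 0.0747, 95% confidence interval 0.55 to 0.90, adjusted p = 0.00205). Between 1679 and 4353 reads lay on MYCN per library, a counting error of at most 2.44%. With siC replicate 3 left out the change was 0.66 (adjusted p = 0.000717, where 10.3% of all genes were called). The call was lost without siC replicate 2 (adjusted p = 0.0144) and without siIGF2BP1 replicate 1, 3 or 4 (0.0137, 0.0121 and 0.0129), with log2 changes of 0.71 to 0.74 (limma). In those fits 0.869% to 1.06% of all genes were called, against 3.93% with all libraries.

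MYC (ENSG00000136997, chromosome 8, 127735434 to 127742951, plus strand, 3 exons), the founding member of the family, was the next most abundant gene. It was at 34.2, 33.1 and 22.1 FPKM in siC replicates 1 to 3. Depleted replicates 1 to 4 held 34.3, 28.7, 33.4 and 34.5 FPKM. The low value of siC replicate 3 set it apart from the other 6 libraries, and the groups overlapped. Group means of 29.8 ± 6.69 and 32.7 ± 2.72 FPKM gave a log2 change of 0.16 with a 95% confidence interval of -0.22 to 0.54 (adjusted p = 0.609). The interval holds decreases and increases of moderate size, so that no change of MYC was detectable here and equality was not shown. Without siC replicate 3 the direction turned, at -0.043 on the log2 scale (adjusted p = 0.744). None of 18 alternative fits called MYC, and their adjusted p ran from 0.374 to 0.943. MYC had 912 to 3179 reads per library.

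MYCL (ENSG00000116990, chromosome 1, minus strand), the family member known from lung cancer, was the lowest of the 10. It was at 0.750 ± 0.0732 in siC and 0.806 ± 0.228 FPKM in siIGF2BP1, on 45 to 108 reads per library. Its mean lay under 1 FPKM, and it was not tested. The siIGF2BP1 values ran from 0.569 to 1.09 FPKM and enclosed all siC values.

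MAX (ENSG00000125952, chromosome 14, 65006174 to 65102695, minus strand, 5 exons) was at 4.90, 4.70 and 5.44 FPKM in siC replicates 1 to 3. The depleted libraries, replicates 1 to 4, held 4.20, 3.62, 4.36 and 4.64 FPKM. All depleted libraries lay below all controls, by a gap between the highest siIGF2BP1 and the lowest siC library that was small beside the spread. The mean was 5.02 ± 0.385 and 4.21 ± 0.430 FPKM, a log2 change of -0.25 (95% confidence interval -0.49 to -0.0088, adjusted p = 0.179), which did not pass. With siC replicate 3 and siIGF2BP1 replicate 2 both left out, the log2 change was -0.12. MAX overlaps the protein-coding gene FNTB on the other strand (log2 change -0.18, adjusted p = 0.631), and it is not stated whether reads were counted by strand.

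In the MXD family MXI1 rose, while MXD1 had the opposite sign without passing the test. MXI1 (also called MXD2, ENSG00000119950, chromosome 10, 110207605 to 110287365, plus strand, 6 exons), a repressor that antagonizes MYC, was at 3.08, 3.30 and 3.77 FPKM in siC replicates 1 to 3. After depletion, replicates 1 to 4 were at 6.43, 6.46, 5.52 and 6.64 FPKM. The lowest depleted library, replicate 3, still lay well above the highest control library. The mean rose from 3.38 ± 0.351 to 6.26 ± 0.503 FPKM, a ratio of 1.85 (log2 change 0.87, SE 0.10, 95% confidence interval 0.63 to 1.11, adjusted p = 0.00299). MXI1 had 239 to 558 reads per library, a counting error of 4.23% to 6.47%. With siC replicate 3 left out the change was 0.95 (adjusted p = 0.00145). The call was lost without siC replicate 1 or 2 (adjusted p = 0.0155 and 0.0188) and without siIGF2BP1 replicate 1, 2 or 4 (0.0172, 0.0148 and 0.0154), with log2 changes of 0.81 to 0.86 (limma). Of all genes, 0.869% to 1.31% were called in those fits, against 3.93% with all libraries.

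MXD1 (ENSG00000059728, chromosome 2, 69897688 to 69942945, plus strand, 6 exons), the repressor induced in differentiating cells, had the opposite sign. It was at 5.16, 5.54 and 6.36 FPKM in siC replicates 1 to 3. In siIGF2BP1 replicates 1 to 4 it was at 4.36, 3.61, 4.18 and 3.88 FPKM. The groups did not overlap, with every depleted library below every control. The mean was 5.69 ± 0.611 and 4.01 ± 0.332 FPKM, or 70.5% of siC (log2 change -0.49, SE 0.102, 95% confidence interval -0.73 to -0.25, adjusted p = 0.0243), which missed the threshold of 0.01. With array weights, which give noisier libraries less influence and called 18.5% of all genes, MXD1 passed (log2 change -0.39, adjusted p = 0.00523), and over its 17 alternative fits the log2 change ran from -0.56 to -0.36, with -0.41 without siC replicate 3. MXD1 overlaps SNRNP27 on its own strand, which was at 15.1 and 15.4 FPKM (log2 change 0.025, adjusted p = 0.811), so reads in the shared stretch are uncertain.

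The other members of the family differed less. MXD4 (ENSG00000123933, chromosome 4, minus strand), a repressor found in differentiated tissues, was the most abundant of the family by FPKM at 11.3 ± 0.608 in siC and 11.1 ± 0.295 FPKM in siIGF2BP1 (log2 change -0.021, 95% confidence interval -0.17 to 0.12, adjusted p = 0.872). Its sign depended on the scaling, with a log2 change of 0.0079 after median centring. MXD3 (ENSG00000213347, chromosome 5, minus strand), which is unusual in being expressed in proliferating cells, was at 2.55 ± 0.222 and 2.96 ± 0.329 FPKM (log2 change 0.20, adjusted p = 0.329). The MXD3 groups overlapped, and its locus overlaps RAB24 on the same strand and PRELID1 on the other.

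MNT (ENSG00000070444, chromosome 17, 2384073 to 2401104, minus strand, 6 exons), the broadly expressed antagonist of MYC, was at 2.099, 1.83 and 1.36 FPKM in siC replicates 1 to 3. In siIGF2BP1 replicates 1 to 4 it was at 2.12, 2.13, 2.33 and 2.59 FPKM. The groups touched without overlapping, since siC replicate 1 nearly reached the lowest depleted library. The mean was 1.76 ± 0.376 and 2.29 ± 0.217 FPKM, a log2 change of 0.38 (95% confidence interval -0.011 to 0.77, adjusted p = 0.204). It was 0.21 without siC replicate 3 (adjusted p = 0.274). MGA (ENSG00000174197, chromosome 15, 41621134 to 41773081, plus strand, 24 exons) was at 15.5 ± 1.93 and 16.2 ± 0.740 FPKM, with overlapping groups (log2 change 0.067, 95% confidence interval -0.15 to 0.28, adjusted p = 0.708). The MGA value of siC replicate 3, 17.7 FPKM, was the highest of the 7 libraries, and without it the log2 change was 0.17 (adjusted p = 0.0642).

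**Figure D2:**
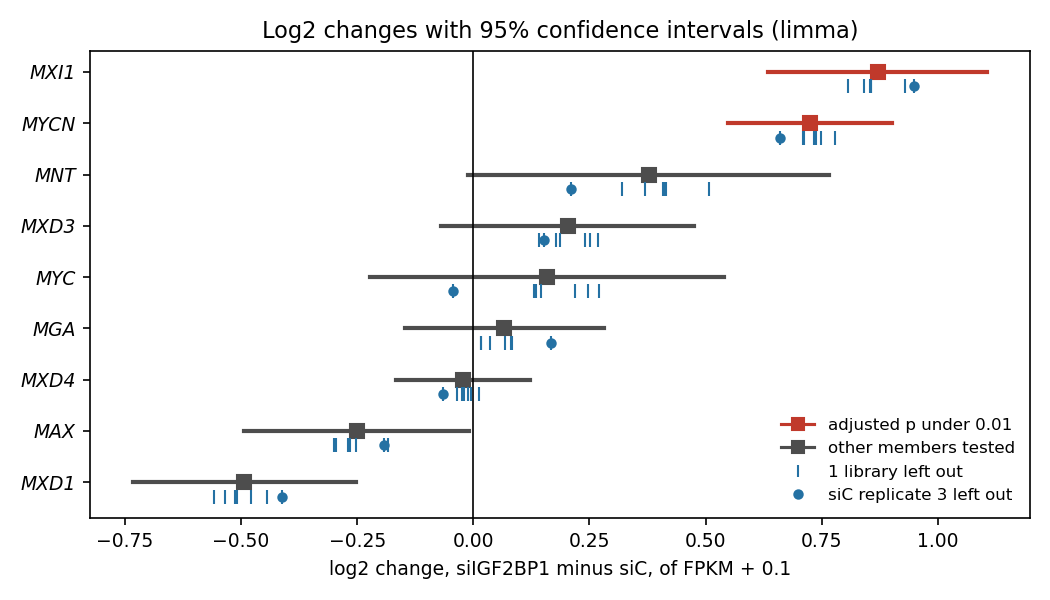
Log2 change of FPKM + 0.1, siIGF2BP1 minus siC (horizontal axis), for the 9 network genes tested, with squares for the change, bars for the 95% confidence interval (limma, 3 against 4 libraries) and blue ticks for the change with 1 library left out (circle: siC replicate 3 left out). MXI1 (0.87) and MYCN (0.73) lie apart at the right in each fit, and the tick of MYC without siC replicate 3 falls left of 0.

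Within siC the levels fell in the order MYCN, MYC, MGA, MXD4, MXD1, MAX, MXI1, MXD3, MNT and MYCL, and of neighbours in this order only MXD1 and MAX had ranges that overlapped. In siIGF2BP1 MXI1 stood in rank 5 in place of 7, above MAX and MXD1, whose ranges again overlapped. This order depends on the gene length used. The length in the deposited table counts more sequence than the canonical transcript for 8 of the 10 genes, most for MXD3 (5154 against 1067 bases). Per base of canonical transcript MXD3 moved to rank 5 in both groups, and MXI1 moved only from rank 8 to rank 7, past MXD1 and not past MAX.

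The summed FPKM of the MYC family (MYC, MYCN and MYCL) was 82.0 ± 10.9 in siC and 119 ± 5.89 in siIGF2BP1. As a share of all partners of MAX (MYC family, MXD family, MNT and MGA) it was 66.9 ± 4.05% and 73.5 ± 1.09%. The groups did not overlap in this share, although siC replicate 3, at 62.3%, lay below the other siC libraries at 69.8% and 68.6%. Without that library the difference was 4.21 percentage points in place of 6.52. MYCN alone made up 42.1 ± 0.601% of partner FPKM in siC and 52.7 ± 0.361% in siIGF2BP1, with ranges of 41.7% to 42.8% and 52.2% to 53.0%. This share was steadier than the level of MYCN itself, and siC replicate 3 did not stand apart in it. MYCN is a large part of the sum it is divided by, which by itself steadies the share. Per base of canonical transcript the MYC family took 52.2 ± 3.78% and 59.9 ± 1.46%, and MYCN 35.1 ± 1.098% and 45.3 ± 0.744%. These shares are descriptions of transcripts and were not tested.

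**Figure D3:**
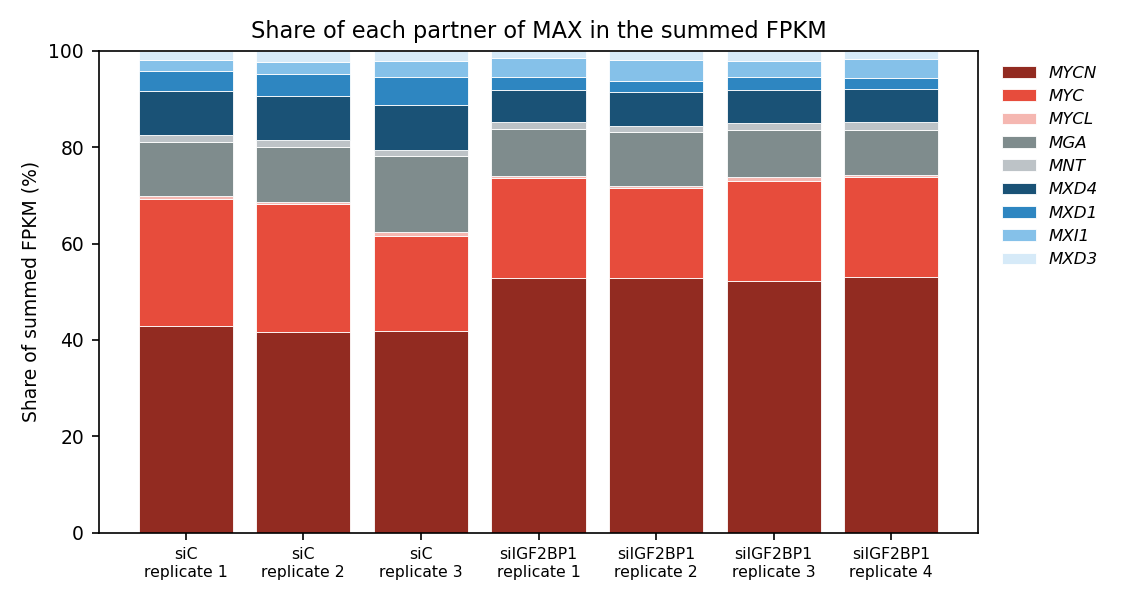
Share of each MAX partner in the summed FPKM of the 9 partners (percent, vertical axis) in each of the 7 libraries (bars). The dark red MYCN share is 41.7% to 42.8% in the siC bars and 52.2% to 53.0% in the siIGF2BP1 bars, and the MYC family share of siC replicate 3 (62.3%) is the lowest.

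Within the MXD family the sum was 22.9 ± 0.322 FPKM in siC and 24.3 ± 0.385 FPKM in siIGF2BP1, and the shares of its members were as follows, as descriptions. MXD1 took 24.8 ± 2.40% of the family in siC and 16.5 ± 1.26% in siIGF2BP1, and MXI1 took 14.8 ± 1.38% and 25.7 ± 1.93%. The ratio of MXD1 to MXI1 was 1.68, 1.68 and 1.69 in siC replicates 1 to 3. The depleted libraries, replicates 1 to 4, gave 0.678, 0.559, 0.758 and 0.585. MXD1 thus exceeded MXI1 in every control library and lay below it in every depleted library, also per base of canonical transcript (1.45 ± 0.00526 and 0.556 ± 0.0784). The ratio of MYCN to MYC was 1.77 ± 0.303 and 2.61 ± 0.149, and the summed partners over MAX were 24.5 ± 3.45 and 38.6 ± 2.99. The size of the ratio over MAX depends on the gene length used. For MAX the deposited length was 4430 bases, against 2010 in the canonical transcript.

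Among the members, siC replicate 3 differed from the other siC libraries in an order partly related to the GC content of the transcript. Its ratio to the mean of siC replicates 1 and 2 was 1.18 to 1.23 for MXD1, MGA and MXI1, whose canonical transcripts have the lowest GC content (42.5% to 43.7%). It was 0.690 to 0.914 for MNT, MYCN, MXD4 and MXD3 (56.9% to 65.6%). MYC and MYCL lay outside this order, with ratios of 0.657 at a GC content of 48.8% and 1.08 at 56.4%. MAX had a ratio of 1.13 at 49.4%. Among the genes of highest GC content the ratio was lowest for MNT (0.690 at 61.3%) and was 0.896 for MXD3 (65.6%). Over the 10 genes Pearson's r of the log2 ratio with GC was -0.544 and Spearman's rho -0.636, given as a description since the genes share the same libraries. For siIGF2BP1 replicate 2 over the other libraries of its group they were -0.035 and 0.10, so the members did not follow GC content there. After the trend with GC was removed in each library, MYCN and MXI1 were called with log2 changes of 0.76 and 0.89 (adjusted p = 0.000388 and 0.00100), beside 6.66% of all genes, and MYC was not called, with a log2 change of 0.19.

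**Figure D4:**
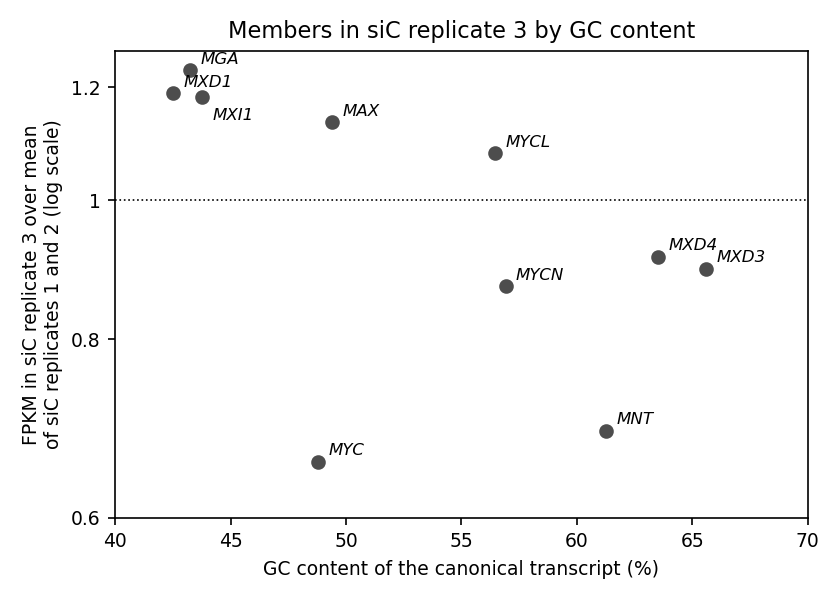
Ratio of FPKM in siC replicate 3 to the mean of siC replicates 1 and 2 (vertical log axis) against the GC content of the canonical transcript (horizontal axis, percent) for the 10 network genes (points). MXD1, MGA and MXI1 with low GC lie above 1, as do MAX (1.13) and MYCL (1.08). MNT, MYCN, MXD4 and MXD3 lie under 1, and MYC (0.657) is the lowest.

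Transcripts next to or opposite the MYC family genes were read beside them. MYCNOS, antisense to MYCN, was at 0.723 in siC and 1.09 FPKM in siIGF2BP1, against 51.5 and 85.1 FPKM for MYCN. Of the neighbours of MYC on chromosome 8, CCAT1 was at 11.2 ± 2.19 and 8.12 ± 0.891 FPKM (log2 change -0.44, adjusted p = 0.103). PVT1 was at 1.70 ± 0.210 and 1.55 ± 0.189 FPKM (log2 change -0.13, adjusted p = 0.663). Of 6 such transcripts 3 were tested and 0 passed (1 at an unadjusted p under 0.05).

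The proteins that act with the network were examined through lists of genes, read against the 3.93% of all genes called and an all-gene median log2 change of -0.017. An unadjusted p under 0.05 was reached by 25.9% of all genes, and its count is given in each list beside a count of 0 calls. On recovered reads with voom, a variant of limma that weighs values by their precision, LDHA and NDRG1 were the only genes called in these lists, beside 5.67% of all genes. Of 14 genes of the SIN3 corepressor, which the MXD proteins and MNT recruit, 0 passed with limma (5 at an unadjusted p under 0.05, median 0.023). The 2 with the highest siC level were BRMS1 (69.8 ± 14.3 and 61.1 ± 4.72 FPKM, log2 change -0.17, adjusted p = 0.527) and the deacetylase HDAC1 (55.5 ± 4.46 and 60.5 ± 2.25 FPKM, log2 change 0.13, adjusted p = 0.335). Of 10 partners of MGA in PRC1.6, 0 passed (0 at an unadjusted p under 0.05, median -0.0043), and the chromodomain protein CBX3 was at 64.9 ± 9.25 and 72.4 ± 2.82 FPKM (log2 change 0.17, adjusted p = 0.373). TFDP1, a dimer partner of E2F6 in this complex, was at 36.5 ± 2.18 and 37.2 ± 0.416 FPKM (log2 change 0.029, adjusted p = 0.812). The parallel arm of the network built on MLX, whose partners sense glucose metabolites, had 3 genes tested and 0 called (2 at an unadjusted p under 0.05, median -0.069), with MLX at 15.7 ± 0.664 and 13.4 ± 1.11 FPKM (log2 change -0.24, adjusted p = 0.114) and MLXIP at 2.32 ± 0.0864 and 2.21 ± 0.145 FPKM (log2 change -0.069, adjusted p = 0.719).

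On the side of MYC, 0 of 14 coactivators and partners passed (1 at an unadjusted p under 0.05, median -0.093). The helicase RUVBL2 was at 38.86 ± 9.11 and 41.4 ± 2.50 FPKM (log2 change 0.12, adjusted p = 0.712), and ACTL6A was at 25.2 ± 1.37 and 23.7 ± 0.807 FPKM (log2 change -0.092, adjusted p = 0.411). Of 15 genes for turnover of the MYC proteins 0 passed (5 at an unadjusted p under 0.05, 3 lower and 2 higher, median -0.15). Among them SET, an inhibitor of the phosphatase PP2A, was at 151 ± 14.2 and 132 ± 4.42 FPKM (log2 change -0.19, adjusted p = 0.197). The kinase AURKA, which shields the MYCN protein from degradation, was at 84.0 ± 11.2 and 71.3 ± 3.28 FPKM (log2 change -0.23, adjusted p = 0.207). Without siC replicate 3, when 10.3% of all genes were called and 6.67% were called lower, AURKA, GSK3B, HUWE1 and SET were called lower. Of 9 proteins that bind MYC mRNA with IGF2BP1 or handle its m6A methylation, 0 passed (2 at an unadjusted p under 0.05, median -0.12), with YBX1 at 486 ± 139 and 535 ± 33.3 FPKM (log2 change 0.18, adjusted p = 0.638) and DHX9 at 89.9 ± 1.40 and 80.5 ± 1.87 FPKM (log2 change -0.16, adjusted p = 0.110). Without siC replicate 3 the methyltransferase METTL3 was called lower.

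Of 36 tested genes known to be induced by MYC, 1 was called higher and 0 lower, and the median log2 change was -0.045. The gene called was LDHA, the lactate dehydrogenase of glycolysis, at 128, 135 and 133 FPKM in siC replicates 1 to 3. After depletion it was at 203, 209, 192 and 203 FPKM in replicates 1 to 4. The groups were far apart beside their spread (132 ± 3.25 and 202 ± 7.15 FPKM, log2 change 0.61, adjusted p = 0.00184), and the call held without siC replicate 3 or siIGF2BP1 replicate 2 and was lost when any other library was left out. In those 5 fits its log2 change was 0.59 to 0.63 (adjusted p = 0.0101 to 0.0148, limma), and 0.869% to 1.11% of all genes were called. Without siC replicate 3 the median of the list was -0.13 against -0.031 over all genes, 7 of 36 were called lower (CDK4, GNL3, HSPD1, NOLC1, NOP56, PA2G4 and SHMT2) and LDHA higher, beside 6.67% and 3.59% of all genes. These names, and those called without siC replicate 3 in the preceding lists, were chosen after their values were seen.

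Of 12 tested genes known to be repressed by MYC, 0 passed (3 at an unadjusted p under 0.05, 1 lower and 2 higher), and the median log2 change was 0.21, or 0.018 without siC replicate 3. FTH1, the heavy chain of ferritin, was at 272 ± 174 and 332 ± 133 FPKM (log2 change 0.39, adjusted p = 0.641), with a spread larger than its difference. CEBPA, a liver transcription factor, was at 246 ± 6.40 and 235 ± 11.6 FPKM (log2 change -0.067, adjusted p = 0.610). The nearest to the threshold, named after its value was seen, was NDRG1 at 16.8 ± 4.32 and 32.6 ± 1.76 FPKM (log2 change 0.99, adjusted p = 0.0143), which was called higher without siC replicate 3.

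**Figure D5:**
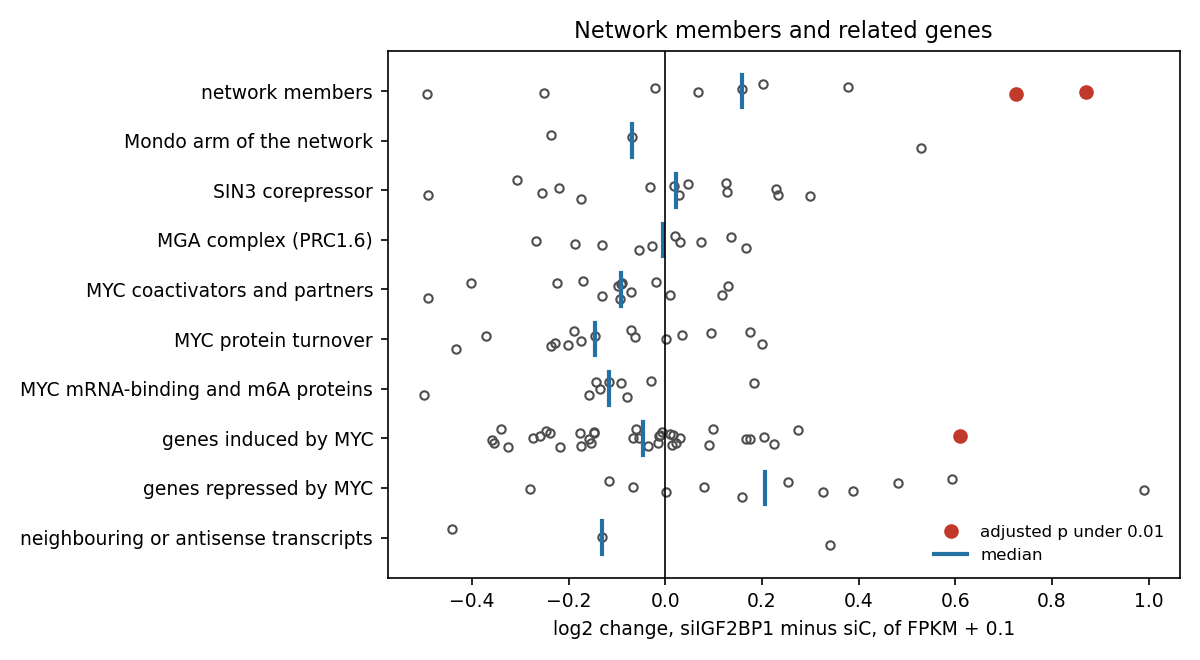
Log2 change of FPKM + 0.1, siIGF2BP1 minus siC (horizontal axis), of each tested gene in the network and in 9 lists of related genes (rows), with filled red points for genes at an adjusted p under 0.01 (limma) and blue bars at the list medians. Filled points are MYCN and MXI1 in the top row and LDHA among genes induced by MYC.

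The protein-coding genes whose log2 FPKM followed that of a member most closely over the 7 libraries were then listed from 10671 genes. Those most like MYCN were ADAM23 (Pearson's r 0.997), APOH (0.997) and AMIGO2 (0.996). Those most like MXI1 were TTC39C (0.996), SLFN11 (0.995) and ZNF253 (0.991). In both cases the 7 points fall into the 2 groups, so that any gene with a clear group difference scores high. For MYC they were NUP62 (0.996), TGM2 (0.995) and TRIP10 (0.995). MYC was at 22.1 FPKM in siC replicate 3 and at 28.7 to 34.5 FPKM in the other 6 libraries, so that a gene low in that library scores high.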

How the data were processed

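Total RNA-seq libraries of Huh-7 cells (3 siC, 4 siIGF2BP1, grouped by sample title) were analysed. The deposited FPKM values had been made by the authors from reads clipped with Cutadapt 1.14, aligned with HISAT2 2.1.0 to GRCh38, counted per gene with featureCounts 1.5.3 over an Ensembl annotation and scaled by TMM (edgeR 3.18.1). Whether reads were counted by strand is not given in the sources used here. The authors' log2 fold changes, p-values and FDR in the table were not used.

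Multiplied by gene length, FPKM stepped in units of 1 read in each library (tolerance 0.02 reads, 100% of values above 0), which gave reads per gene and depth. Counting errors cover counting alone. Genes averaging 1 FPKM or more were tested with limma 3.58.1 (R 4.3.3, mean-variance trend) on log2(FPKM + 0.1), two-sided, with Benjamini-Hochberg adjustment over all genes tested and a threshold of 0.01. The fits were checked on simulated reads that held no library standing apart and no GC trend, so that check does not cover these features. Log2 changes are siIGF2BP1 minus siC on that scale, which understates changes of low genes. Voom used the recovered reads. Other settings were quantile normalization, median centring, a pseudocount of 1, a filter at 5 FPKM or none, no trend, array weights, a replicate block, a threshold of 0.05 and leaving out each library. Removal of the GC trend and leaving out siC replicate 3 with siIGF2BP1 replicate 2 were chosen after seeing the data.

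The members, the lists and the 4 microRNAs were chosen with earlier results of these data known. Genes named are the members, IGF2BP1, per list the genes past the threshold (at most 4 per direction) or else the 2 with the highest siC level, and the 3 protein-coding genes correlated best with MYC and with each member called. Others (paralogues of IGF2BP1, MYCNOS and other overlapping genes, single cell type markers, and genes called only under an alternative) were chosen after their values were seen. Exons and 3'UTRs are those of the canonical transcript in GENCODE on GRCh38. Protein sequences were not used here.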

Additional observations from a re-analysis of the deposited data

Results flagged for a closer look

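The ratio of MYCN to MYC was the measure in which 1 library lay far from the others of its group. In siIGF2BP1 it was 2.55, 2.83, 2.50 and 2.55 in replicates 1 to 4, and the gap of replicate 2 to its nearest neighbour made up 0.841 of the range, above Dixon's 95% critical value for 4 samples. The MYC value of this library, 28.7 FPKM, was the lowest of its group (gap over range 0.818), while its MYCN value, 81.2 FPKM, was lowest by a gap of 0.360 of the range. Of 26 measures examined in the siIGF2BP1 group this was the only such case, and chance gives about 1 in 20. With 3 libraries, siC was left out of this search.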

How the results depend on the processing

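MYCN and MXI1 kept their direction in all 19 alternatives and were called in 13 and 12 of 18 fits, with log2 changes from 0.66 to 0.80 and from 0.73 to 0.95. With 1 library left out, the count of members called ran from 0 to 2, that of the list genes from 0 to 14 and that of all genes from 129 to 1523, against 2, 1 and 583. The log2 change of MYC ran from -0.043 to 0.27 in these fits, the rise in MYC family share from 4.21 to 7.98 points against 6.52 (4.93 without MGA), and those of MYCN and IGF2BP1 from 0.66 to 0.78 and from -2.40 to -2.35. MXD4, at -0.021, was at 0.0079 with median centring, 0.033 with quantile normalization, 0.011 with the GC trend removed and from -0.064 to 0.012 with 1 library left out (the latter without siC replicate 1). The list genes called numbered 30 with array weights, 2 with voom, 5 with the GC trend removed, 19 without siC replicate 3 and siIGF2BP1 replicate 2, and 9 at a threshold of 0.05, and all genes called 352 without a filter, 2744, 842, 980, 1605 and 1713 under these. The cause was not tested.

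Same-numbered libraries did not deviate together (correlations -0.026, -0.12 and -0.11). These deviations are from means of only 3 siC and 4 siIGF2BP1 libraries, so they cannot settle whether the numbers pair the samples. With the replicate block, limma called 0 members, 0 list genes and 0 of all genes (2389 at an unadjusted p under 0.05). MYCN, MXI1 and IGF2BP1 then had log2 changes of 0.71, 0.84 and -2.36 (adjusted p = 0.130, 0.141 and 0.0909), in a fit with few residual degrees of freedom that leaves siIGF2BP1 replicate 4 without a partner. MYCL rested on 45 to 108 reads per library, a counting error of 9.62% to 14.9%.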
